A study of Mus musculus with 6 samples.

Results

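The mitochondrial ribosomal protein genes were taken as every gene whose symbol is Mrpl or Mrps followed by a number and at most 1 letter (a to c). There were 78 such symbols, 49 of the large subunit series (Mrpl) and 29 of the small subunit series (Mrps). All 78 had a mean over the 6 libraries of at least 10 normalized estimated counts, so none was lost to the filter on low values. They are 78 of 13180 genes tested.

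The libraries came from CD4+ T cells isolated from the spleen of wild-type C57BL/6 mice, labelled with the division dye CFSE and cultured in RPMI medium for 48 h with IL-2 (200 U) and anti-CD3/anti-CD28 antibodies, which activate the T cell receptor and its costimulator. Cells were given either 5 mM itaconate, a dicarboxylic acid made from a Krebs cycle intermediate, or 5 mM NaCl, with 3 libraries of each. The control columns are coded NAC, a code taken to mean NaCl, the second treatment in the labels. Neither age nor sex of the mice is given. It is also not said whether a group's 3 libraries derive from different mice or cultures, and the p-values therefore reflect library-to-library spread alone, which may be technical.

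Mitochondria keep a small genome and translate its mRNAs on their own ribosomes. The RNA of these ribosomes is encoded in mitochondrial DNA, whereas all of their proteins are encoded in the nucleus, made in the cytosol and imported. The proteins they make are core subunits of the respiratory chain and of ATP synthase, and T cells are known to build up this machinery when they are activated.

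The libraries held an estimated 20074299 to 24144999 reads. T cell markers were abundant, with all 7 listed markers above a mean of 10. Their summed level was 56710, 58620 and 59150 in the itaconate libraries and 49660, 55160 and 54590 in the NaCl libraries. The single markers went different ways. Every itaconate value was above every NaCl value for Cd4, Cd3e, Cd28 and Lck, and below for Cd2 and Cd3g, while Cd3d overlapped. Cd4 had 13470, 13960 and 13090 with itaconate against 8559, 10190 and 9806 with NaCl. Cd2 had 4849, 5016 and 6054 with itaconate against 8543, 8468 and 9446 with NaCl. Summed markers were low for CD8 T cells (308 to 365 in itaconate, 363 to 408 in NaCl) and B cells (173 to 303 in itaconate, 224 to 304 in NaCl), and at most 11.1 in any library for NK, dendritic and erythroid cells. Summed myeloid markers were higher with itaconate, at 198, 179 and 154 against 56.1, 73.3 and 90.5 with NaCl. Of the 6 myeloid markers in the table, Cd68 and Itgam made up nearly all of that sum. Cd68 had 151.5, 96.7 and 82.1 with itaconate against 40.8, 66.3 and 63.5 with NaCl. Itgam had 39.3, 70.1 and 67.7 with itaconate against 11.2, 7.03 and 24.5 with NaCl. Lyz2, Csf1r, Cd14 and Adgre1 were at most 9.67 in any library. The part of these markers in the results on the ribosomal protein genes was not tested.

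For most mitochondrial ribosomal protein mRNAs the difference between itaconate and NaCl was bounded within 1.5-fold, and those that passed the test were mostly lower with itaconate in the values as deposited, but not after GC and length trends were removed (11 higher and 9 lower). Of the 78 genes, 3 rose, 12 fell and 63 did not pass an adjusted p of 0.05 in limma's moderated test with Benjamini-Hochberg adjustment over all 13180 genes. The 15 that passed are 19.2% of the 78, whereas 36% of all tested genes passed, 18.2% of them higher and 17.8% lower. Only Mrps2 fell by more than 2-fold, and Mrpl55 was the other gene past 1.5-fold; over all tested genes 10.1% passed at 2-fold or more and 20.4% at 1.5-fold or more. The plot of fold changes by gene shows the spread.

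**Figure D1:**
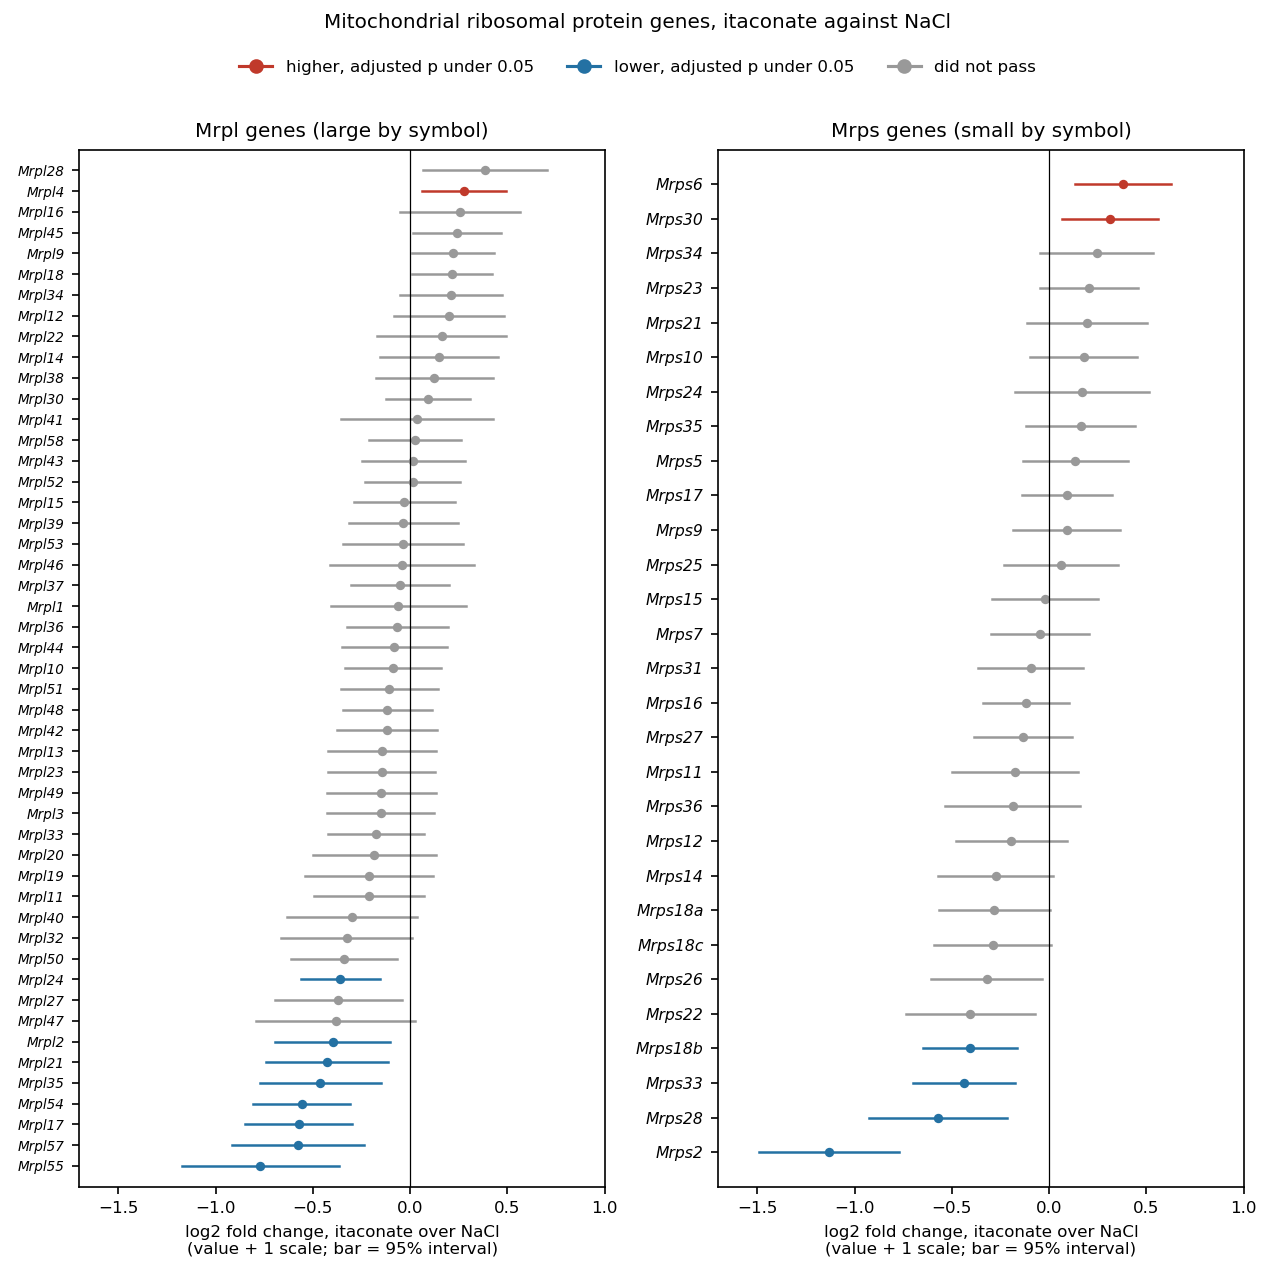
Log2 fold change, itaconate over NaCl on the log2(value + 1) scale (x axis), of the 49 Mrpl genes (left) and 29 Mrps genes (right); points are estimates and bars 95% intervals from limma. Genes that passed at an adjusted p of 0.05 are coloured (3 higher, 12 lower), and Mrps2 stands lowest at -1.13.

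The median log2 fold change of the 78 genes was -0.09, with quartiles of -0.29 and 0.12 and a range of -1.13 to 0.38. Over all tested genes the median was -0.00 and the quartiles were -0.34 and 0.32. The estimate was above 0 for 28 of the 78 genes and below 0 for 50. For 57 of the 78 genes the 95% interval of the fold change lay within 1.5-fold in either direction, against 5252 of all 13180 genes, and this held for 54 of the 63 that did not pass. The values of the 2 groups did not overlap in 5 genes higher and 18 genes lower with itaconate, where 24.2% of all tested genes did not overlap in each direction.

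Library by library, the median difference of the 78 genes from their mean in NaCl was -0.01, -0.12 and -0.10 on the log2 scale in the itaconate libraries and 0.07, -0.07 and 0.04 in the NaCl libraries. These medians overlap between the groups. The 78 values summed to 59225, 54478 and 53328 in the itaconate libraries and to 59186, 54341 and 59011 in the NaCl libraries, so the summed mRNA overlapped too. In bulk RNA, fewer cells of a type and less RNA per cell cannot be told apart.

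The count of genes that rose depended on single libraries and on a correction for transcript properties. Without itaconate replicate 1, itaconate replicate 2 or NaCl replicate 2, 0 genes rose in limma's test, with 2, 4 and 1 higher at an unadjusted p under 0.05; without itaconate replicate 3, 5 rose. The genes that fell numbered 5 without itaconate replicate 2, 7 without NaCl replicate 3, 8 without NaCl replicate 1 and 10 to 14 without any other library. Of all tested genes 36% passed with all 6 libraries. Without itaconate replicate 1, 2 or 3 that share was 30.25%, 26.39% or 37.94%. Without NaCl replicate 1, 2 or 3 it was 30.62%, 28.9% or 28.68%. After trends with GC content and transcript length were removed from each library, 11 genes rose and 9 fell, in place of 3 and 12. In that fit the median of the 78 genes was -0.01, and 37.73% of all tested genes passed.

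The members' main transcripts are short, with a median of 1255 bases against 2740 for all tested genes, while their median GC content was 50.4% against 50.3%. The correction moved 63 of the 78 fold changes upward. Over all 78 the shift had a median of 0.10 on the log2 scale and ran from -0.115 to 0.18. Of the 15 genes that passed as deposited, 11 also passed after it, and 4 (Mrpl21, Mrpl24, Mrps18b and Mrps33, all lower) did not. The 9 genes that passed only after it were Mrpl9, Mrpl16, Mrpl18, Mrpl28, Mrpl30, Mrpl45, Mrps10 and Mrps23, which rose, and Mrps26, which fell. Mrps2, Mrpl17, Mrpl54 and Mrpl55 were among the genes lower in both fits. Among the 78 genes the log2 fold change correlated with log transcript length at -0.12 as deposited and -0.3 after the correction. With GC content the correlations were 0.252 and 0.244. Over 12956 tested genes they were 0.111 for length and 0.069 for GC content as deposited, and 0 after the correction. The part of length or GC content in the members' fold changes was not tested.

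**Figure D2:**
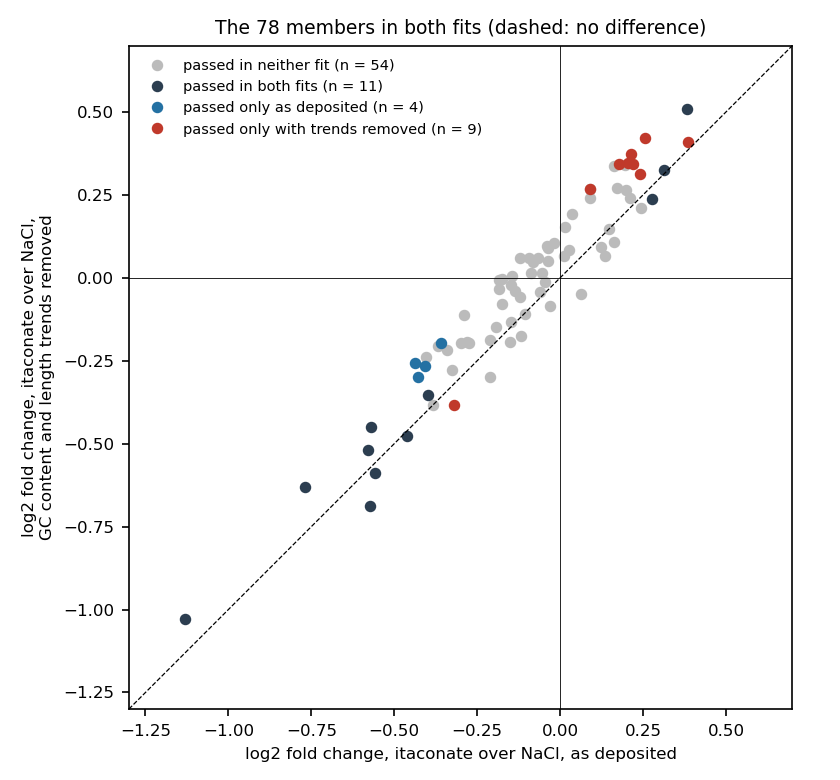
Log2 fold change of each of the 78 genes, itaconate over NaCl, as deposited (x axis) and after trends with GC content and transcript length were removed from each library (y axis); colour gives the fits in which the gene passed. 11 genes passed in both, 4 only as deposited and 9 only with the trends removed, and most points lie above the diagonal.

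Large and small subunit genes had nearly equal medians. Among the 49 large subunit genes by symbol, 1 rose, 8 fell and 40 did not pass, with a median log2 fold change of -0.09. Among the 29 small subunit genes, 2 rose, 4 fell and 23 did not pass, also with a median of -0.09; the large minus small difference of the medians was 0.01. Structures of the mammalian ribosome place the products of Mrps18a and Mrps30 in the large subunit. The product of Mrps36 is absent from those structures and is assigned to the 2-oxoglutarate dehydrogenase complex. Grouped that way, 2 of 51 large subunit genes rose and 8 fell, and 1 of 26 small subunit genes rose and 4 fell, with medians of -0.09 and -0.07.

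Proteins with a counterpart in bacterial ribosomes are distinguished from those found only in mitochondrial ribosomes. Of 46 genes for conserved proteins, 2 rose and 8 fell, with a median of -0.10. Of 31 genes for proteins specific to mitochondria, 1 rose and 4 fell, with a median of -0.08. By subunit in the structures, 23.3% of the 30 conserved and 14.3% of the 21 mitochondria-specific large subunit genes passed, as did 18.8% of the 16 conserved and 20% of the 10 mitochondria-specific small subunit genes. All 4 shares are below the 36% of all tested genes.

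Promoters of these genes are known to carry sites for nuclear factors that serve mitochondrial genes, and start-site sequences are shown for a few of them. RefSeq promoter windows (GRCm38.p6, 250 bases before to 50 after the start) were found for 69 of the 78 genes. Each stretch below is the 120 bases before the RefSeq start, 5′ to 3′ on the gene's strand, with motif matches in capitals. In GENCODE M21, Mrpl17, Mrps6 and Mrpl53 begin within their stretches, at 105811099, 92058270 and 83109040. Part of each of these stretches therefore lies inside the gene as annotated there. Mrps2, Mrpl17, Mrpl55 and Mrps6 are shown as genes that passed, and Mrpl43 and Mrpl53 as genes that did not and hold a pair of ETS matches.
Mrps2, chr2:28467946-28468065, plus strand: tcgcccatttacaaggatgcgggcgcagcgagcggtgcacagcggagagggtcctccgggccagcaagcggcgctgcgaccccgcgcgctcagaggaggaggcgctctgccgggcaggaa
Mrpl17, chr7:105811088-105811207, minus strand: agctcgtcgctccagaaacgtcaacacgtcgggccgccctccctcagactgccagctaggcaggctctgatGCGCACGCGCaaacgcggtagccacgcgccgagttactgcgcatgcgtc
Mrpl55, chr11:59202366-59202485, plus strand: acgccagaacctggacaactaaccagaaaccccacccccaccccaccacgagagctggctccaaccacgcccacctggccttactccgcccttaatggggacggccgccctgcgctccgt
Mrps6, chr16:92058216-92058335, plus strand: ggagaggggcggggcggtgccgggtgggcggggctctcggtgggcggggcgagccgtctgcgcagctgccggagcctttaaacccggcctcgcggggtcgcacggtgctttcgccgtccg
Mrpl43, chr19:45006443-45006562, minus strand: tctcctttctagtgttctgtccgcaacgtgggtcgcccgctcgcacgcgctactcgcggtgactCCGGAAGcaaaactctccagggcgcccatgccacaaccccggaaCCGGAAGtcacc
Mrpl53, chr6:83108988-83109107, plus strand: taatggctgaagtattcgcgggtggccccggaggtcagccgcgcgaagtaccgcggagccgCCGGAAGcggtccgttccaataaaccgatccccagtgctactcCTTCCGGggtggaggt

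The motifs searched on both strands were GCGCA, any base and then GCGC for NRF1, CCGGAAG for the ETS family, which includes GABPA, and AANATGGC for YY1. The NRF1 letters were in 18.8% of the members' windows, against 12% for tested genes with a window and 5.19% for all promoters. For the ETS letters the shares were 37.7%, 21.1% and 9.93%, and for YY1 30.4%, 10.3% and 6.96%. These shares include matches in the 50 bases after the start. With only matches wholly before the start counted, the YY1 shares were 10.1%, 5.48% and 4.49%. They were then 26.1%, 16.4% and 7.83% for ETS, and 14.5%, 9.68% and 4.23% for NRF1. The capitals in Mrpl17 are an NRF1 match starting 49 bases before the start, and those in Mrpl43 and Mrpl53 are ETS matches; the shown stretches of Mrps2, Mrpl55 and Mrps6 hold none. Any of the 3 motifs was in 70% of the 10 windows of genes that fell and in 68.4% of the 57 windows of genes that did not pass. A match is a run of letters and says nothing of binding.

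Mrps2, which encodes a conserved small subunit protein, was the most changed member. It had 216, 199 and 299 normalized estimated counts with itaconate, against 499, 514 and 528 with NaCl. Each itaconate value lay far below each NaCl value, with replicate 3 the highest of the itaconate libraries. The log2 fold change was -1.13 ± 0.17 (SE, adjusted p = 2.37e-04 in limma), or 2.19-fold lower with itaconate, with a 95% interval of -1.49 to -0.77. The gene lies on the plus strand of chromosome 2 at 28468066-28471178 (GRCm38, GENCODE M21).

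The 3 other small subunit genes that fell did so by less. Mrps28, for another conserved protein, had 374, 302 and 273 with itaconate against 542, 403 and 465 with NaCl (log2 fold change -0.57 ± 0.16, adjusted p = 0.0155); its groups were apart by little, and it no longer passed when itaconate replicate 2 (adjusted p = 0.0560) or NaCl replicate 1 (0.0696) was left out, or when the variance was modelled with no trend on expression level (no intensity trend, 0.0532). Mrps33, for a mitochondria-specific protein, had 656, 639 and 520 with itaconate against 788, 808 and 851 with NaCl (-0.44 ± 0.12, adjusted p = 0.0137), and did not pass without NaCl replicate 3 (0.0541) or with GC and length trends removed (0.0940). All 3 itaconate libraries were below all 3 NaCl libraries in both genes.

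Mrps18b is one of a set of paralogues, Mrps18a, Mrps18b and Mrps18c, that descend from a single bacterial small subunit protein. Mrps18b had 695, 590 and 607 with itaconate against 818, 858 and 828 with NaCl, and fell by 0.41 ± 0.11 on the log2 scale (adjusted p = 0.0130), though not without itaconate replicate 2 (0.0605) or with GC and length trends removed (0.0723). Mrps18c had 513, 530 and 411 with itaconate against 654, 579 and 539 with NaCl; its groups did not overlap, but it did not pass (-0.29 ± 0.14, adjusted p = 0.121). Mrps18a, whose product sits in the large subunit, had 523, 470 and 493 with itaconate against 657, 516 and 642 with NaCl, with itaconate replicate 1 above NaCl replicate 2 (-0.28 ± 0.13, adjusted p = 0.113; 0.0494 without NaCl replicate 2). The estimates of all 3 paralogues were below 0, and whether they differ from each other was not tested.

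Of the small subunit symbols that rose, Mrps6 encodes a conserved protein and had 1072, 1048 and 866 with itaconate against 775, 731 and 777 with NaCl. The log2 fold change was 0.38 ± 0.11 (adjusted p = 0.0198), and the call ended without itaconate replicate 1 (0.0720), itaconate replicate 2 (0.0860) or NaCl replicate 2 (0.0671), and with no intensity trend (0.0544). Mrps6 shares 159 exon bases on the same strand with Slc5a3, a sodium/myo-inositol cotransporter. Slc5a3 had 3694, 3275 and 2103 with itaconate against 1093, 1035 and 797 with NaCl (1.61 ± 0.18, adjusted p = 3.82e-05). Replicate 3 was the lowest itaconate library in both genes. Among the NaCl libraries it was the lowest for Slc5a3, while for Mrps6 NaCl replicates 1 and 3 were nearly equal. The part of shared reads in the value of Mrps6 was not tested.

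Mrps30, whose product is found in the large subunit, had 1167, 1030 and 1003 with itaconate against 899, 761 and 916 with NaCl. It rose by a log2 fold change of 0.31 ± 0.11 (adjusted p = 0.0472). That call ended without itaconate replicate 1 (0.156), itaconate replicate 2 (0.0909), NaCl replicate 1 (0.0618), NaCl replicate 2 (0.178) or NaCl replicate 3 (0.0574), and with no filter (0.0636), quantile normalization (0.0695) or no intensity trend (0.0984). Mrps36 had 335, 432 and 326 with itaconate against 479, 361 and 402 with NaCl; the groups overlapped and it did not pass (-0.19 ± 0.16, adjusted p = 0.394).

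Mrpl55 and Mrpl17 encode conserved large subunit proteins and had the largest log2 fold changes of that group beside Mrpl57. Mrpl55, with the lowest mean level of the 78 genes, had 120, 165 and 168 with itaconate against 268, 247 and 251 with NaCl (-0.77 ± 0.19, adjusted p = 0.00633), or 1.71-fold lower. Mrpl17 had 448, 443 and 530 with itaconate against 638, 755 and 718 with NaCl (-0.57 ± 0.13, adjusted p = 0.00379). In both genes every itaconate library was below every NaCl library, with the wider gap relative to its spread in Mrpl55.

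Mrpl54 and Mrpl57 encode mitochondria-specific proteins of the large subunit. Mrpl54 had 533, 544 and 502 with itaconate against 738, 746 and 843 with NaCl, a narrow spread in both groups (-0.56 ± 0.11, adjusted p = 0.00241). Mrpl57 had 513, 403 and 437 with itaconate against 733, 534 and 768 with NaCl (-0.58 ± 0.16, adjusted p = 0.0118). Its NaCl replicate 2 came close to the itaconate values, and the call ended without itaconate replicate 2 (0.0583) or NaCl replicate 3 (0.0623), and with no intensity trend (0.0590).

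Mrpl35, Mrpl2 and Mrpl24 encode conserved large subunit proteins; that of Mrpl2 lies close to the peptidyl transferase centre. Mrpl35 had 579, 490 and 482 with itaconate against 778, 582 and 791 with NaCl (-0.46 ± 0.14, adjusted p = 0.0240). Mrpl2 had 705, 665 and 712 with itaconate against 1045, 734 and 999 with NaCl (-0.40 ± 0.14, adjusted p = 0.0367). In both, NaCl replicate 2 was only just above the itaconate libraries. The call of Mrpl35 ended without itaconate replicate 2 (0.0861), itaconate replicate 3 (0.0522), NaCl replicate 1 (0.0880) or NaCl replicate 3 (0.103), and that of Mrpl2 without itaconate replicate 1 (0.0589), itaconate replicate 2 (0.115), NaCl replicate 1 (0.141) or NaCl replicate 3 (0.133). With no intensity trend neither passed (0.0785 for Mrpl35 and 0.107 for Mrpl2), and with no filter Mrpl2 did not (0.0505).

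Mrpl24 was higher in level, with 1105, 1051 and 1159 with itaconate against 1362, 1460 and 1428 with NaCl (-0.36 ± 0.09, adjusted p = 0.0104; 0.0531 without itaconate replicate 2 and 0.104 with GC and length trends removed). Its groups were well apart relative to their spread. Mrpl21, chosen after its values were seen because it completes the 8 large subunit genes that fell, had 514, 421 and 401 with itaconate against 653, 512 and 634 with NaCl. Its itaconate replicate 1 was above NaCl replicate 2, so the groups overlapped, although it passed (-0.43 ± 0.14, adjusted p = 0.0346). It no longer passed when itaconate replicate 2 (0.111) or 3 (0.0839), or NaCl replicate 1 (0.116) or 3 (0.115), was left out, with no intensity trend (0.0833) or with GC and length trends removed (0.104).

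Mrpl4, for a conserved protein near the exit tunnel for the new chain, was the large subunit gene that rose. It had 1829, 1689 and 1792 with itaconate against 1464, 1325 and 1608 with NaCl (0.28 ± 0.10, adjusted p = 0.0461). The groups lay close together, and the call ended without any 1 of itaconate replicates 1, 2 and 3 (0.116, 0.0765 and 0.0789) or NaCl replicates 1 and 2 (0.0905 and 0.175), and with no filter (0.0638), quantile normalization (0.0912) or no intensity trend (0.104). Mrpl12, a stalk protein that also binds the mitochondrial RNA polymerase, had 1295, 1067 and 1071 with itaconate against 1145, 840 and 1015 with NaCl; the groups overlapped and it did not pass (0.20 ± 0.13, adjusted p = 0.254).

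**Figure D3:**
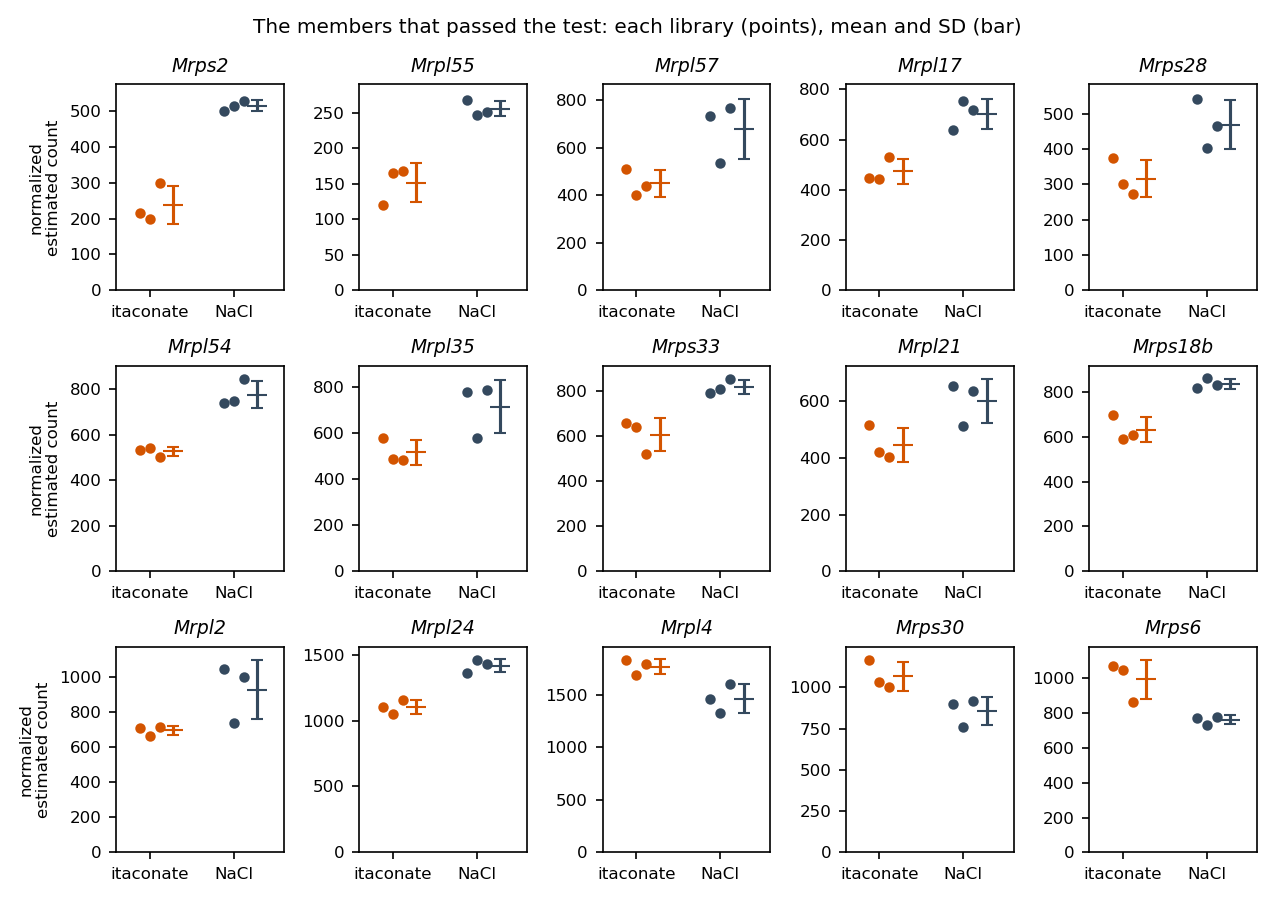
Normalized estimated counts (y axis, from 0) of the 15 genes that passed, in each of the 3 itaconate (left) and 3 NaCl (right) libraries; points are libraries and bars mean and SD. Mrps2 has the largest fold difference between the groups, while Mrpl21 is the gene whose groups overlap.

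Levels of different genes are comparable only per transcript length. Mrpl33 was the most abundant member on that scale, at 2550 normalized estimated counts per kilobase over the 6 libraries, and Mrps21 the most abundant of the small subunit symbols at 1169 per kilobase; both encode conserved proteins. Mrpl33 had 993, 1170 and 1280 normalized estimated counts with itaconate against 1201, 1387 and 1283 with NaCl, and Mrps21 had 615, 557 and 496 with itaconate against 416, 490 and 556 with NaCl. Both genes overlapped between groups and did not pass (adjusted p = 0.257 for Mrpl33 and 0.314 for Mrps21). Across the 78 genes mean normalized counts, not divided by length, ran from 203 to 2174 with a median of 680.

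Overlapping annotation touches several of these values. Exons of 25 of the 78 genes share bases with another gene with a mean of at least 10, and the strand setting of the counting is not given in the sources used here, so reads of opposite-strand partners cannot be told apart. Among the genes that passed, Mrps18b shares 638 bases with the antisense gene Gm16279, which had 20.1, 9.98 and 26.5 with itaconate against 44.9, 35.6 and 38.1 with NaCl (-1.12 ± 0.45, adjusted p = 0.0668). Mrpl24 shares 594 bases with Rrnad1 and Mrpl21 117 bases with Ighmbp2, neither of which passed (adjusted p = 0.636 and 0.535). Mrps30 shares 623 bases with B430218F22Rik, which had 64.0, 38.8 and 4.28 with itaconate against 32.3, 26.6 and 51.7 with NaCl (adjusted p = 0.554). Mrpl53, which did not pass, shares 695 bases on the same strand with Gm42688. That gene had 118, 170 and 194 with itaconate against 77.8, 59.4 and 88.2 with NaCl (1.08 ± 0.26, adjusted p = 0.00569 in limma). The part of shared reads in the value of Mrpl53 was not tested. Of 6 Mrpl and Mrps pseudogene entries left out by the rule, Mrpl23-ps1 had the highest mean, 35.4.

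Genes that work with the mitochondrial ribosome were described from lists by function. Mitoribosome proteins with other symbols (Dap3, Ptcd3, Chchd1, Aurkaip1 and Gadd45gip1) had 0 of 5 past limma's test, with 1, Ptcd3, lower at an unadjusted p under 0.05 (694, 677 and 679 with itaconate against 873, 827 and 796 with NaCl; adjusted p = 0.0517). Of 27 assembly and rRNA modification genes, 1 rose and 6 fell, with a median log2 fold change of -0.21. The share that passed was 25.9%, against 36% of all tested genes. Mtg2, a GTPase of large subunit assembly, had 166, 161 and 207 with itaconate against 282, 341 and 333 with NaCl (-0.84 ± 0.17, adjusted p = 0.00224). Fastkd2, an RNA-binding protein of large subunit assembly, fell by 0.78 ± 0.18 (adjusted p = 0.00537) and Gtpbp10, another such GTPase, by 0.62 ± 0.17 (adjusted p = 0.0120), both on the log2 scale. Mpv17l2, an inner membrane protein linked to ribosome assembly, was the gene that rose (0.57 ± 0.16, adjusted p = 0.0125), though not without itaconate replicate 2 (0.0516) or NaCl replicate 2 (0.0520).

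Of 18 mitochondrial translation factors and related genes, 3 fell and 0 rose in limma's test. The share that passed was 16.7%, against 36% of all tested genes. At an unadjusted p under 0.05 in that test, 0 were higher and 5 lower. The median was -0.10. Mtif2, the initiation factor, had 534, 545 and 592 with itaconate against 818, 871 and 800 with NaCl (-0.57 ± 0.11, adjusted p = 0.00158). Gfm2, a ribosome recycling factor, fell by 0.43 ± 0.10 on the log2 scale (adjusted p = 0.00591). Lars2, the mitochondrial leucyl-tRNA synthetase, fell by 0.56 ± 0.16 (adjusted p = 0.0134), though not without NaCl replicate 3 (0.0702) or with no intensity trend (0.0976).

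Of the RNA parts of the ribosome, encoded in mitochondrial DNA, 1 fell and 1 did not pass. The large subunit rRNA mt-Rnr2 had 5572, 6093 and 6460 with itaconate against 13560, 11986 and 10411 with NaCl (-0.98 ± 0.10, adjusted p = 2.24e-05). The small subunit rRNA mt-Rnr1 had 8412, 7574 and 8103 with itaconate against 7591, 7542 and 7073 with NaCl and did not pass (0.12 ± 0.08, adjusted p = 0.281), except after GC and length trends were removed (log2 fold change 0.40, adjusted p = 0.00215); the difference between the 2 changes was not tested. Of the 13 mRNAs the ribosome translates, 12 fell, where 17.8% of all tested genes fell. Their median log2 fold change was -1.32, beside -0.09 for the 78 ribosomal protein genes. Whether rRNA was depleted or poly(A) RNA selected is not stated in the labels.

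**Figure D4:**
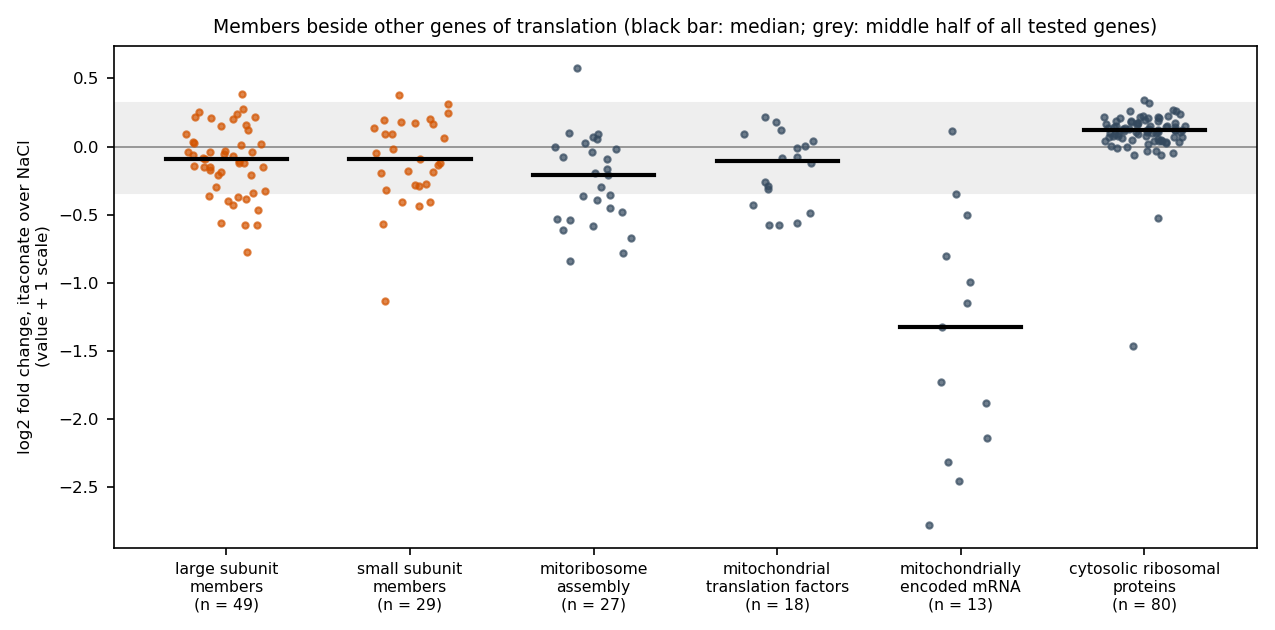
Log2 fold change, itaconate over NaCl on the log2(value + 1) scale (y axis), of large and small subunit members, assembly genes, translation factors, mitochondrially encoded mRNAs and cytosolic ribosomal proteins; points are genes, black bars medians and the grey band the middle of all tested genes between quartiles. The members' medians lie at -0.09, near the all-gene median of -0.00, while the mitochondrially encoded mRNAs have a median of -1.32.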

How the data were processed

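RNA of 6 libraries was sequenced, 3 with itaconate and 3 with NaCl. The deposited signal values are estimated counts per gene symbol divided by a size factor for each library; the unit was worked out from the values, and per the submitters' processing notes the genome was mm10 and the tools STAR 2.7.0f and RSEM 1.3.0. No source used here names the size factor tool, the annotation or the strand setting. Of the values above 0, between 80.0% and 82.2% were within 0.02 of a whole number of reads, the value of 1 read being the most frequent low value of each library. Since the rest were fractional estimated counts, limma on log values was used in place of a count model. The 3 libraries of each group differed by more than sampling noise (chi-square per degree of freedom 12.8 to 25.5).

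The table held 55401 entries, of which 34124 were at 0 in every library; 13180 with a mean of at least 10 were tested. Values were analysed as log2(value + 1) with limma 3.58.1 in R 4.3.3 (an intensity trend in the variance, no replicate block, the 6 libraries only, Benjamini-Hochberg adjustment over all tested genes, threshold 0.05). Fold changes on this scale understate changes of low genes. Errors are SE of the log2 fold change, with 3 libraries per group.

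Alternatives covered the pseudocount, the filter, scaling, the variance model, a replicate block, GC content and length, the subunit assignment and each library left out. The members and lists were chosen with earlier results of these data known. Genes named were, for each subunit and direction, up to 8 that passed without overlap between groups, and up to 4 of each other list. A further 8 were chosen for their biology or level (Mrps18a, Mrps18b, Mrps18c, Mrps30, Mrps36, Mrpl12, Mrpl33 and Mrps21). Outside these rules, Mrpl21, Slc5a3, mt-Rnr1, Ptcd3, Rps4l, Rpl7a and Gm42688 were named after their values were seen. Coordinates, lengths and exon overlaps are from GENCODE M21 (GRCm38, the same assembly as mm10), in which all 78 members had an entry.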

Additional observations from a re-analysis of the deposited data

How the results depend on the processing

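Of the 15 genes that passed, Mrps2, Mrpl54, Mrpl17 and Mrpl55 passed in all 17 alternatives, with adjusted p from 2.18e-05 to 0.00888 for Mrps2, 0.00110 to 0.0155 for Mrpl54, 0.00174 to 0.0221 for Mrpl17 and 0.00445 to 0.0247 for Mrpl55. No gene that passed changed sign in any of them, and over the named genes 61 single values lost the threshold and 7 gained it (5 of Ptcd3, 1 of Mrps18a and 1 of mt-Rnr1). The pseudocount changed the number of members that passed by at most 1. The genes higher numbered 1 in all, 0 large and 1 small with no filter on low values or with quantile normalization (5 and 2 large at an unadjusted p under 0.05), and 2 large with a minimum mean of 100 or with robust variances. Without the intensity trend 0 rose in all (3 at an unadjusted p under 0.05), 0 large and 0 small, and 7 fell, 4 of them large. With GC and length trends removed 11 rose, 7 large and 4 small, and the medians were -0.0053 over all members, 0.0043 for large and -0.013 for small. By structure 2 large and 1 small rose. Of the genes tested in each fit, 20.52% passed with no filter, 36.12% with quantile normalization and 42.21% with a minimum mean of 100. With robust variances 36.34% passed, without the intensity trend 27.7%, and with GC and length trends removed 37.73%. The causes of the shifts in the members' counts and medians were not tested. Leaving out any 1 library gave 0 to 5 genes higher (0 to 3 large, 0 to 2 small) and 5 to 14 lower (3 to 9 large, 2 to 6 small), and large minus small medians of -0.024 to 0.048.

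With the replicate number as a block, 6 members rose, 4 of them large, and 21 passed in all. Of all tested genes 42.76% passed with the block, against 36% without it. The deviations of same-numbered libraries correlated at 0.15, 0.04 and 0.13 over all tested genes, short of 0.1 in 1 pair, so the numbers were not taken as pairs. Over the 78 members they correlated at 0.23, 0.12 and 0.29, and over both sets each library correlated best with its own number, a hint from the data and not from the labels.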

Other observations

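Cytosolic ribosomal protein genes, which build the ribosomes that translate nuclear mRNAs, had a median log2 fold change of 0.12 with itaconate over 80 genes measured. Library by library, their median difference from the NaCl mean was 0.08, 0.19 and 0.09 with itaconate. With NaCl it was -0.05, -0.04 and 0.10, so these medians overlapped between the groups. By gene, 71 of the 80 estimates were above 0 and 9 below, where 6581 were above and 6599 below over all tested genes. Of these 80 genes, 6 rose and 1 fell in limma's test. These are 7.5% and 1.25%, against 18.2% higher and 17.8% lower over all tested genes. Rpl7a, picked as an example after its values were seen, had 40987, 41555 and 36832 with itaconate against 31765, 30643 and 31796 with NaCl (0.34 ± 0.09, adjusted p = 0.00789). The gene that fell was Rps4l, named after its values were seen, at 10.3, 6.44 and 15.4 with itaconate against 30.6, 36.2 and 23.6 with NaCl (-1.46 ± 0.51, adjusted p = 0.0395). It passed with 1 library left out only where that was itaconate replicate 3; the adjusted p without itaconate replicate 1 or 2 was 0.0692 or 0.115, and without NaCl replicate 1, 2 or 3 it was 0.0983, 0.132 or 0.0670. It also did not pass with no filter (0.0901) or quantile normalization (0.0523).

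Of 9 regulators of nuclear genes for mitochondria, 1 rose and 2 fell. The share that passed, 33.3%, is near the 36% of all tested genes. Ppargc1b, a coactivator, had 112, 72.0 and 90.3 with itaconate against 38.8, 49.2 and 25.4 with NaCl (1.28 ± 0.33, adjusted p = 0.00861). Myc, which drives growth genes in activated T cells, had 4678, 4671 and 5972 with itaconate against 7134, 6900 and 8344 with NaCl (-0.55 ± 0.11, adjusted p = 0.00211), and Gabpb2 fell by 0.43 ± 0.10 on the log2 scale (adjusted p = 0.00697), though not with no intensity trend (0.0590). Nrf1, Gabpa and Yy1, whose motifs were searched above, did not pass in limma's test (adjusted p = 0.903, 0.0891 and 0.101).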
